A study of Mus musculus with 15 samples.

Results

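The genes described here are 10 transcripts that ERK signalling induces and whose products, with a pair of exceptions, turn that signalling down again: the phosphatases Dusp4, Dusp5 and Dusp6, the Sprouty genes Spry1, Spry2 and Spry4, the related Spred1 and Spred2, and the ETS transcription factors Etv4 and Etv5. They were taken as a list of names with no threshold on a measured value, though with earlier results of these data known, and they make up 10 of the 18193 mouse genes that could be named on the array. The platform annotation gives them 28 probe sets with no other gene, from 1 for Dusp4, Dusp5, Dusp6 and Spry1 to 8 for Spred1. Each gene was read from its brightest probe set on average over the 15 arrays, a choice that does not use the groups.

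Total RNA of mouse lung was labelled and hybridised to Affymetrix gene expression arrays, with 1 sample on each and 3 in each group. At 12 months, wild type lungs were set against lung tumours from animals with a mutant genotype that includes Smad4 deletion (d/d), each sample a piece of a lung or of a single tumour. At 7 months, pieces of wild type lung were set against pieces of lung with the same mutant genotype, collected, per the series design, ahead of tumour formation. Animals were untreated, on normal feed and of mixed background, and no difference below can be laid to Smad4 alone. At 12 months the genotype and the kind of tissue, tumour or lung, cannot be told apart. The cells and promoter behind the deletion are not given in the sources used here, and where the labels do not say that samples came from separate animals the p-values measure the spread between these samples alone.

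ERK is the last kinase of the cascade that carries signals from receptor tyrosine kinases, such as the ErbB and FGF receptors, through RAS, RAF and MEK to the nucleus. Active ERK switches on its own brakes: DUSP phosphatases remove phosphate from ERK, and Sprouty and SPRED proteins dampen the step at RAS. Because these transcripts follow ERK activity closely, their RNA is widely read as a measure of pathway output. ERK phosphorylation itself was not measured here. In lung, Etv4 and Etv5 relay FGF signals during branching, and Etv5 is well expressed in alveolar type 2 cells, which make surfactant.

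Promoter sequence is shown for 3 members whose arrays did not overlap between groups in 1 of the comparisons: Dusp5 in tumours, and Spred2 and Etv5 at 7 months. Spry1, whose groups were also apart at 7 months, had a window that is not shown. Dusp4 at 7 months and Spry4 in tumours were apart too, but no window was taken for them or for Etv4. Windows ahead of RefSeq starts (GRCm38.p6) were taken for 7 of the 10 genes, and any entries of members on 1 chromosome were not used. Among the 7 was Etv5 with 2 starts, of which the more upstream is given. Each run is the 250 bases ahead of the start, 5′ to 3′ on the gene's strand, with CArG boxes, the sites of serum response factor, in capitals.
Dusp5, chr19:53528895-53529144, plus strand: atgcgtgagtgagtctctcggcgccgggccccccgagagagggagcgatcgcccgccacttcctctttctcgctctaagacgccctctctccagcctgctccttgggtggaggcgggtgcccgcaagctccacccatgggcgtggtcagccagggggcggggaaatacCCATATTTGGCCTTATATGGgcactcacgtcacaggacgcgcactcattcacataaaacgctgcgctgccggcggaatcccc
Spred2, chr11:19924192-19924441, plus strand: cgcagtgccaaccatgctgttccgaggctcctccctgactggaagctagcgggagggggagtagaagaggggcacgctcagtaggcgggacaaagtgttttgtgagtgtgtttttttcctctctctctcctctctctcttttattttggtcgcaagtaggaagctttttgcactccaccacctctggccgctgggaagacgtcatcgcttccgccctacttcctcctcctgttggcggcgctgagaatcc
Etv5, chr16:22439571-22439820, minus strand: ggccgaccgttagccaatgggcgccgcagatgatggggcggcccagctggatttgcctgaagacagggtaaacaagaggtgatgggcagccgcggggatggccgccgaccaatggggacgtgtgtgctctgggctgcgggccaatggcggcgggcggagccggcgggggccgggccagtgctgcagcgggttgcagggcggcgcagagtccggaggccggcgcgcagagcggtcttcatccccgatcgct
The Dusp5 window held 2 CArG boxes, which begin 82 and 72 bases ahead of the start, and such a box was present in 1.47% of the 32851 promoter windows of this length. The other 7 windows of these genes held none. The ETS core CCGGAA, the AP-1 motif TGANTCA and the cyclic AMP response element TGACGTCA, each searched on both strands, were absent from all 8 windows and present in 12%, 6.75% and 1.55% of all windows. A match describes letters in the window and says nothing of binding in these samples.

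Smad4 read 2664 to 2924 in wild type lung and 2965 to 3688 in tumours at 12 months, and 3163 to 3304 in wild type and 3166 to 3364 in mutant lung at 7 months. Whether its probe set lies in the deleted part of the gene is not known here, so these values do not check the labels. Array medians lay between 90.92 and 99.48, and log2 values within a group correlated at 0.982 to 0.994 over genes. Control probe sets for ribosomal 18S RNA read 1121 to 2036 on the tumour arrays and 5492 to 6933 on wild type arrays of that age. Xist was high on wild type arrays 1 and 3 at 12 months (6786 and 6917). It was at 236.5 or below on wild type array 2 and all 3 tumours. The Y-linked Eif2s3y read 20.56 and 13.65 on wild type arrays 1 and 3, 1796 on wild type array 2 and 1567 to 1908 in tumours. The tumours thus had a male pattern and wild type arrays 1 and 3 a female one, so sex was not balanced between these groups. At 7 months 5 of the 6 arrays carried both Xist and the Y-linked Eif2s3y, and wild type array 3 carried Eif2s3y with Xist at 48.1. The labels do not say whether a sample at that age holds RNA of 1 animal; if these are pools of both sexes, the errors and p-values at 7 months describe the spread between pools, which was not tested. The lung label was borne out by the surfactant gene Sftpc, at 11518 to 13080 on the 12 arrays described. Epithelial (6 of 6 measured), ciliated cell (6 of 6) and heart muscle markers (5 of 5) rose in tumours, and 2 of 5 club cell markers rose too. Falls were called for 5 of 7 endothelial and 3 of 6 macrophage markers. They were also called for 2 of 7 fibroblast and smooth muscle and 1 of 6 alveolar type 1 markers. Over all genes 15.2% were called in either direction. Tumour arrays lay wholly below wild type for 6 of 6 macrophage, 6 of 7 endothelial and 4 of 6 alveolar type 1 markers. They lay wholly above it for every epithelial, ciliated and heart muscle marker, 4 of 5 club cell and 2 of 3 B cell markers. Of the fibroblast and smooth muscle markers 4 of 7 lay above and 2 below, and 1 alveolar type 1 marker lay above. The groups did not overlap for 37.5% of all genes. No T and NK (5) or B cell marker (3) was called in tumours. At 7 months 4 of 6 epithelial, 6 of 6 ciliated, 3 of 5 club and 1 of 5 heart muscle markers rose. Of 7 endothelial markers 2 fell, none was called in the other lists, and 7.81% of all genes were called. Summed macrophage signal was 10929 to 19997 in tumours against 26198 to 30037 in wild type lung. Summed endothelial signal was 6625 to 9829 in tumours against 13038 to 14899 in wild type lung, and 15140 to 18464 in mutant against 20778 to 21552 in wild type lung at 7 months. In such bulk samples fewer cells of a type and less RNA per cell cannot be told apart, and the part of these shifts in the results below was not tested.

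**Figure D1:**
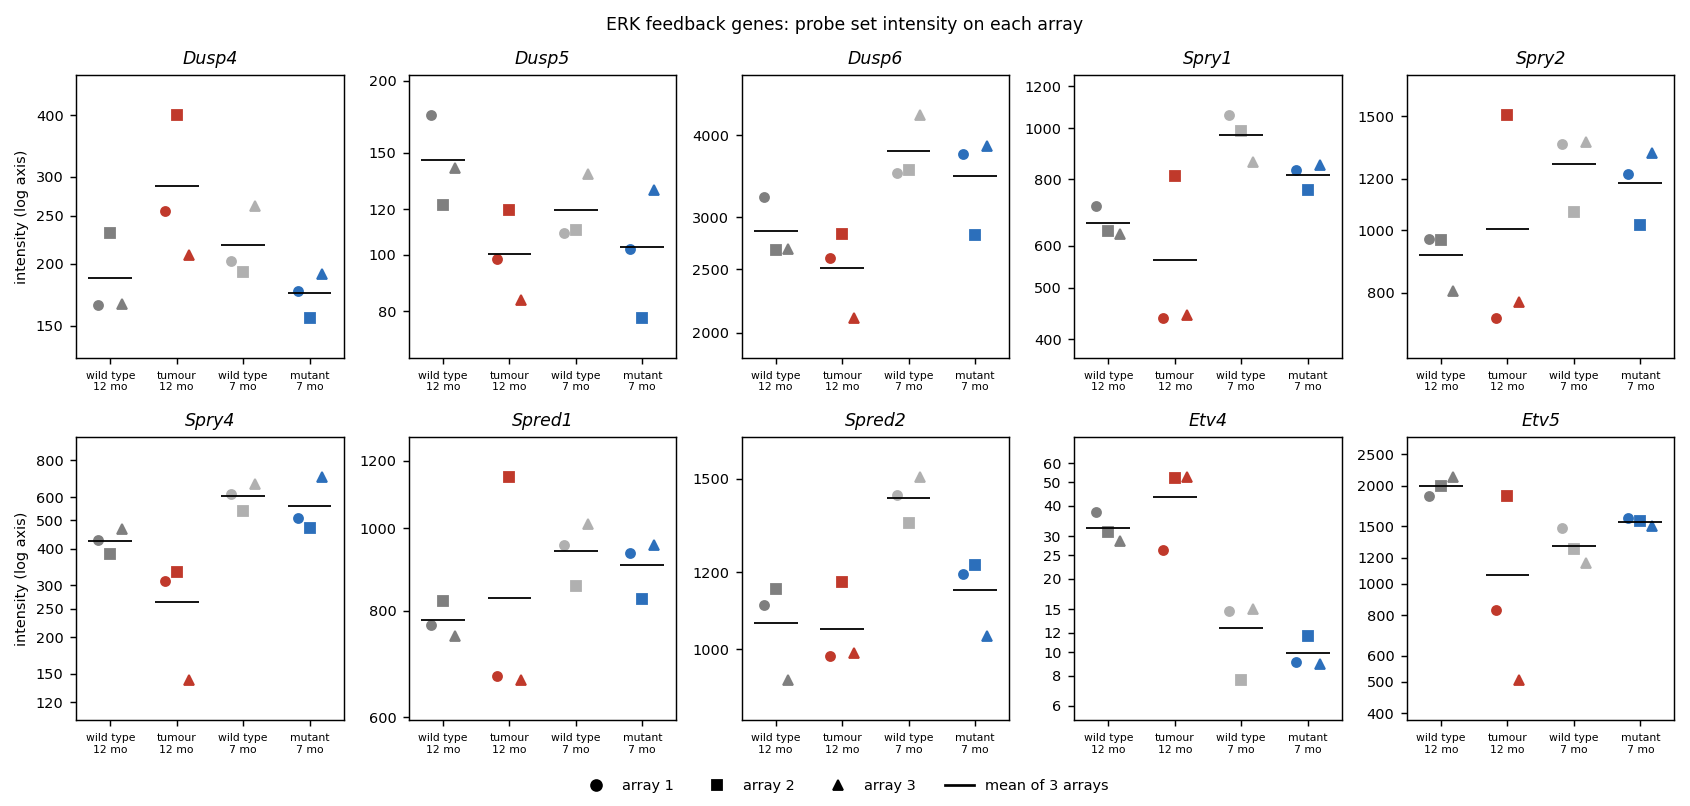
Probe set intensity (log axis) of the 10 ERK feedback genes on each of the 12 arrays, by group; marker shapes give the array number and bars the mean of 3 arrays. Tumour array 2 (red square) is the highest tumour array for 9 of the 10 genes, and tumour and wild type arrays at 12 months are fully apart for Dusp5 and Spry4.

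None of the 10 genes passed the test in tumours against wild type lung of the same age. In limma's fit over all genes 0 of 10 were called at an adjusted p under 0.05, where 15.2% of the 18193 genes tested were called. At an unadjusted p under 0.05 the count was 3 of 10, against 30.8% of all genes. Their median log2 fold change was -0.10, with 6 of 10 below 0, and that of all genes was 0.01. The largest estimates were Etv5, lower by 2.13-fold, Spry4, lower by 1.68-fold, and Dusp4, higher by 1.46-fold. Tumour and wild type arrays did not overlap for 2 of the 10, Dusp5 and Spry4, while this held for 37.5% of all genes.

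In mutant lungs at 7 months no feedback gene had an estimate beyond 1.24-fold of wild type, and again 0 of 10 were called in limma's fit, beside 7.81% of all genes. At an unadjusted p under 0.05 there were 4 of 10, against 23.3% of all genes. The estimates of 9 of the 10 lay below 0, with a median log2 fold change of -0.13; over all genes 8828 of 18193 lay below 0 and the median was 0.01. The exception was Etv5, which was 1.19-fold higher in mutant lung. The arrays of both groups did not overlap for 4 of the 10, Dusp4, Spry1, Spred2 and Etv5, against 26.1% of all genes.

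**Figure D2:**
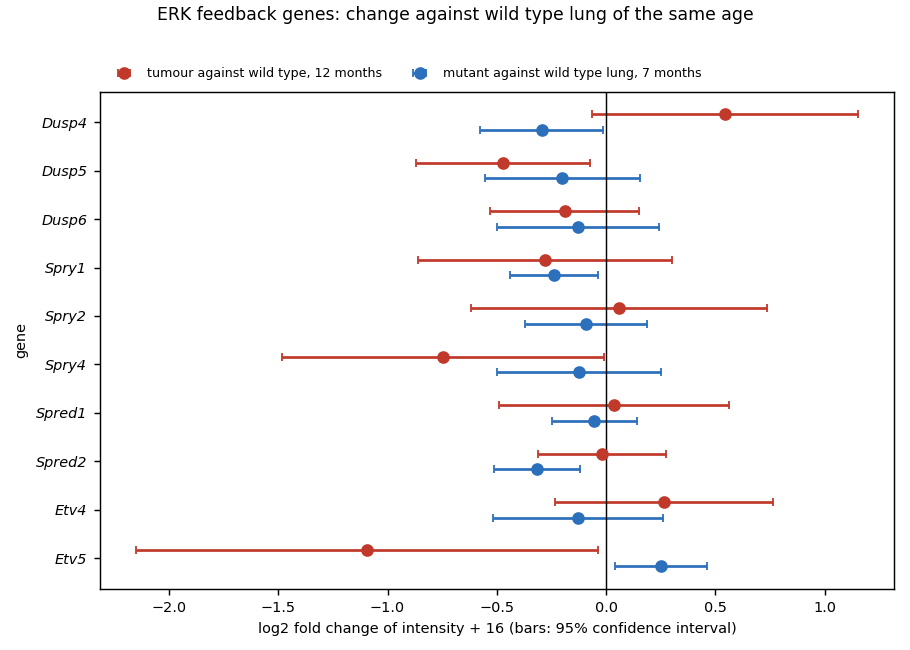
Log2 fold change of intensity + 16 for each of the 10 genes (points) with its 95% confidence interval (bars), for tumours at 12 months (red) and mutant lungs at 7 months (blue), each against wild type of that age. No gene passed after adjustment over all genes, and the widest interval is that of Etv5 in tumours, from -2.15 to -0.04.

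The phosphatases were read first. Dusp4, a nuclear phosphatase of ERK, read 165, 231 and 166 on the wild type arrays at 12 months and 256, 400.1 and 208 on the tumour arrays. The tumour values lay higher on the whole but overlapped, since tumour array 3 fell below wild type array 2. The log2 fold change in tumours was 0.55 ± 0.25 (SE, n = 3 arrays a group, adjusted p = 0.202). At 7 months Dusp4 read 202, 192 and 261 in wild type and 176, 156 and 191 in mutant lung. All 3 mutant arrays lay below all 3 wild type arrays, by a narrow margin between the nearest, and the log2 fold change was -0.29 ± 0.12 (adjusted p = 0.195). The direction thus differed between the ages, but the test of that difference did not pass (0.84 ± 0.28, adjusted p = 0.128).

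Dusp5, the other nuclear phosphatase, acts on ERK alone among the MAP kinases. Its wild type values at 12 months were 174, 122 and 141, and its tumour values 98.3, 119.6 and 83.7. Every tumour array lay below every wild type array, although tumour array 2 and wild type array 2 were close. In tumours this gave a log2 fold change of -0.47 ± 0.16 (95% interval -0.87 to -0.08, adjusted p = 0.109). At 7 months Dusp5 read 109, 111 and 138 in wild type and 102, 77.97 and 129 in mutant lung, with overlapping groups (-0.20 ± 0.15, adjusted p = 0.499).

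Dusp6, the cytoplasmic phosphatase of ERK, was bright on every array. It read 3220, 2674 and 2679 in wild type lung at 12 months and 2596, 2832 and 2108 in tumours, and tumour array 2 lay within the wild type range. The log2 fold change of -0.19 ± 0.14 had a 95% interval of -0.53 to 0.15 (adjusted p = 0.422), which spans 0.692 to 1.11 times the wild type level. At 7 months it read 3503, 3542 and 4295 in wild type and 3748, 2820 and 3847 in mutant lung. These groups overlapped broadly (-0.13 ± 0.16, interval -0.50 to 0.24, adjusted p = 0.696).

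The Sprouty genes encode membrane-associated inhibitors of receptor tyrosine kinase signalling. Spry1 read 714, 640.3 and 631 in wild type lung at 12 months and 439, 810.5 and 445 in tumours. Tumour arrays 1 and 3 lay below all wild type arrays and tumour array 2 above them, and the log2 fold change was -0.28 ± 0.24 (adjusted p = 0.493). Without tumour array 2 it was -0.56 and passed (adjusted p = 0.0177), so 1 array decided that call; over all alternatives tried the adjusted p ran from 0.0177 to 0.789. At 7 months Spry1 read 1058, 986 and 862 in wild type and 833, 764 and 853 in mutant lung. The groups were apart by the small gap between 862 and 853, with a log2 fold change of -0.24 ± 0.09 (adjusted p = 0.147).

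Spry2 showed the same order among the tumours. Its wild type values at 12 months were 971, 966 and 807, and its tumour values 733, 1506 and 775. The high array 2 kept the mean of the tumours near that of wild type lung (log2 fold change 0.06 ± 0.28, adjusted p = 0.914), a sign that turned to -0.04 when arrays were centred on their medians. At 7 months the values were 1359, 1067 and 1367 in wild type and 1221, 1017 and 1315 in mutant lung, again overlapping (-0.09 ± 0.12, adjusted p = 0.716).

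Spry4 had the largest difference among the Sprouty genes. It read 429, 385 and 466 in wild type lung at 12 months against 312, 333 and 143 in tumours. All 3 tumour values were lower than any wild type value, with array 3 well below the others. The log2 fold change was -0.75 ± 0.30 (95% interval -1.48 to -0.01, adjusted p = 0.158), and it passed when all 15 arrays shared 1 estimate of the spread (adjusted p = 0.0422, and 0.0422 to 0.870 over all alternatives). A second, dimmer Spry4 probe set pointed the same way in tumours (log2 fold change -0.29, adjusted p = 0.0931), while the remaining 2 read at most 49.93 on the arrays at 12 months. At 7 months Spry4 read 616, 537 and 662 in wild type and 511, 470.4 and 701 in mutant lung, with the highest value in the mutant group (-0.12 ± 0.16, adjusted p = 0.717).

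SPRED proteins bind neurofibromin, the RAS inhibitor encoded by Nf1, and bring it to the membrane. Spred1 read 770, 822 and 748 in wild type lung at 12 months and 671, 1147 and 664 in tumours. As for Spry1 and Spry2, tumour arrays 1 and 3 lay below the wild type range and array 2 above it. This gave a log2 fold change of 0.04 ± 0.22 (adjusted p = 0.931), or -0.06 with arrays centred on their medians. At 7 months Spred1 read 955, 855 and 1012 in wild type against 936, 825 and 955 in mutant lung (-0.05 ± 0.09, interval -0.25 to 0.14, adjusted p = 0.766).

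Spred2 had the lowest adjusted p of the 10 genes at 7 months. It read 1442, 1350.1 and 1505 in wild type and 1196, 1222 and 1031 in mutant lung. The lowest wild type array stood above the highest mutant array by more than 100 intensity units, and the log2 fold change was -0.32 ± 0.09 (95% interval -0.51 to -0.12, adjusted p = 0.0630). It passed with the dimmer genes left out (adjusted p = 0.0259), with a variance trend and robust fitting (0.0240), with arrays centred on their medians (0.0252) and with 64 added before taking logs (0.0362), within a range of 0.0240 to 0.931 over all alternatives. None of its other 4 probe sets was called: their log2 fold changes ran from -0.27 to 0.10, with adjusted p from 0.414 to 0.931. In tumours Spred2 read 985, 1173 and 991, beside 1110, 1152 and 929.5 in wild type lung of that age, so the groups overlapped (-0.02 ± 0.12, interval -0.31 to 0.27, adjusted p = 0.941).

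Etv4 and Etv5 are ETS transcription factors of the PEA3 family and carry ERK signals to target genes. Etv4 was near the floor of the array: it read 37.8, 31.3 and 28.7 in wild type lung at 12 months, 26.3, 52.0 and 52.5 in tumours, and at most 15.1 on the arrays described at 7 months. Its second probe set read at most 4.98 on the 12 arrays described. Folds at this level depend on the added 16, and neither the tumours (log2 fold change 0.27 ± 0.21, adjusted p = 0.444) nor the mutant lungs (-0.13 ± 0.17, adjusted p = 0.711) passed.

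Etv5 varied most between the tumours. It read 1856, 1991 and 2122 in wild type lung at 12 months and 828, 1857 and 507 in tumours. Tumour arrays 1 and 3 lay far below wild type, and array 2 was within 1 unit of the lowest wild type array. The log2 fold change was -1.09 ± 0.44 (95% interval -2.15 to -0.04, adjusted p = 0.150). It was -1.59 without tumour array 2 (adjusted p = 0.0114), and with all 15 arrays in 1 fit the same estimate of -1.09 passed (adjusted p = 0.0207). Over all alternatives the adjusted p ran from 0.0114 to 0.301. The other 2 Etv5 probe sets gave -0.71 and -1.28 (adjusted p = 0.117 and 0.127 in a fit over all probe sets). In both, all tumour arrays lay below all wild type arrays.

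At 7 months the estimate for Etv5 had the opposite sign. It read 1486, 1279 and 1155 in wild type and 1594, 1556 and 1499 in mutant lung, so every mutant array was above every wild type array, though 1499 and 1486 were close. On the log2 scale the fold change was 0.25 ± 0.09 (adjusted p = 0.146), and without wild type array 1 it was 0.35 (adjusted p = 0.0414, and 0.0414 to 0.730 over all alternatives). The difference between the tumour effect and the 7-month effect was -1.34 ± 0.44 on the log2 scale (adjusted p = 0.123), and -1.84 without tumour array 2 (adjusted p = 0.000992, the lowest of its alternatives, which reached 0.213). At 7 months the other 2 Etv5 probe sets gave 0.32 and 0.41 (adjusted p = 0.304 and 0.199 in a fit over all probe sets). In both, mutant and wild type arrays overlapped, so the full separation held for the brightest probe set only.

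Markers of alveolar type 2 cells, summed, had the same order as Etv5 across the tumours. Their summed signal (6 of 7 listed markers measured) was 39549, 53048 and 29396 on tumour arrays 1, 2 and 3, against 49034 to 51461 in wild type lung, which is the order of Etv5 on the same arrays. At 7 months the sums were 47588 to 50145 in wild type and 49929 to 53111 in mutant lung. None of the 6 markers was called in limma's fits, against 15.2% of all genes in tumours and 7.81% at 7 months. At an unadjusted p under 0.05 there were 0 in tumours and 2 at 7 months, against 30.8% and 23.3% of all genes. All 6 estimates lay below 0 in tumours and above 0 at 7 months. For 3 of the 6 the mutant arrays lay wholly above wild type at 7 months, as for 2759 of all 18193 genes. None of the markers was near 0, with 961 as the lowest value of any. The summed alveolar type 1, endothelial, and T and NK markers also had the order of Etv5 across the tumours, and the other lists did not. Whether the number of cells of any of these types set the Etv5 values was not tested.

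The 3 genes nearest to Etv5 in pattern over the 12 arrays were Sgpp2, a phosphatase of sphingosine phosphate, the kinase gene Lrrk2 and Lpcat1, an acyltransferase of surfactant lipid. Etv5 was chosen for this after its values were seen. Likeness was the root mean square difference of log2 values, each gene centred on its mean over these arrays, and it was 0.148, 0.165 and 0.178, where Etv5 itself varied with an SD of 0.581. Lpcat1 read 3750, 3437 and 3696 in wild type lung at 12 months and 1762, 4484 and 1034 in tumours, so that array 2 again stood above the other tumours.

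**Figure D3:**
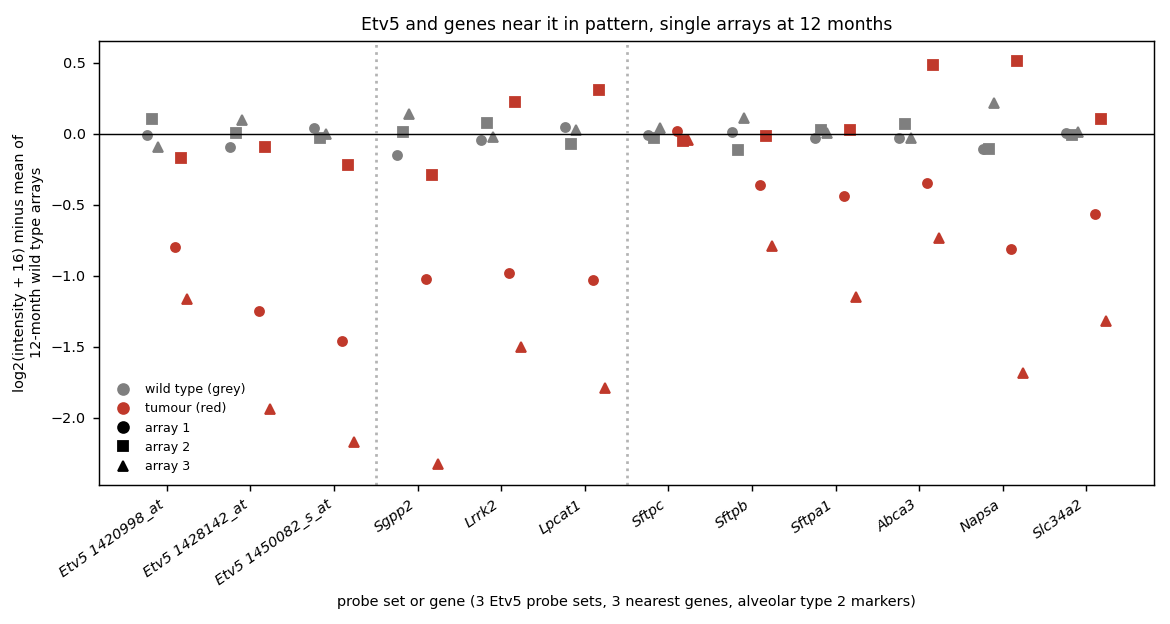
Log2(intensity + 16) minus the mean of the 12-month wild type arrays, for 3 Etv5 probe sets, the 3 genes nearest in pattern and the alveolar type 2 markers; grey points are wild type arrays, red points tumours, and shapes give the array number. Tumour array 2 (red square) is the highest tumour array for every item but Sftpc, and arrays 1 and 3 lie below the wild type mean for every item but Sftpc.

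Tumour array 2 was the highest tumour array for 9 of the 10 feedback genes and the lowest for none. Over all genes it was the highest for 37.6% and the lowest for 33.3%, and it was the highest for 26 of 44 other ERK pathway genes. The exception was Etv4, where array 3 was higher by under 1 unit. At 7 months, wild type array 3 was the highest of its group for 8 of the 10 genes and mutant array 3 for 7, against 34.5% and 32.5% of all genes. Mutant array 2 was the lowest of its group for 7 of the 10, against 28.0% of all genes. Since the 10 values of an array come from 1 sample, they are not separate observations of it.

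The effect in tumours at 12 months was compared with that in mutant lungs at 7 months in 1 fit of all 15 arrays. In limma 0 of 10 feedback genes differed, where 3.17% of all genes did. At an unadjusted p under 0.05 there were 2 of 10, Dusp4 and Etv5, against 18.8% of all genes. In this contrast the animals' age, the kind of tissue and any batch that separates the sets cannot be told apart.

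Other genes of the pathway were followed through 5 lists holding 44 measured genes. In tumours 3 of them rose and 5 fell in limma's fit, 8 of 44 against 15.2% of all genes, and their median log2 fold change was -0.07. At 7 months 1 rose and 1 fell, 2 of 44 against 7.81% of all genes. The share called was thus near that of all genes in tumours and not above it at 7 months. The number was unsteady, from 2 without wild type array 1 to 10 without tumour array 2 in tumours, where it was 3 without wild type array 2, 5 without wild type array 3 or tumour array 1, and 14 when all 15 arrays shared 1 fit.

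Il17rd, which encodes Sef, a membrane inhibitor of FGF signalling, was 1.90-fold lower in tumours. It read 649, 599 and 525 in wild type lung and 317, 353 and 246 in tumours, with a wide gap between the groups (log2 fold change -0.93 ± 0.15, adjusted p = 0.0149). The call was lost without wild type array 1 or 2 (adjusted p = 0.0557 and 0.0533). Ier3, another early ERK-induced gene, was 1.45-fold lower (adjusted p = 0.0438), a call that was lost without 5 of the 6 single arrays. These were the 2 called among 10 other ERK-induced transcripts, where 15.2% of all genes were called. Of the 10 estimates 5 lay above 0. Only Myc had all tumour arrays above wild type, and it was not called (log2 fold change 0.39 ± 0.10, adjusted p = 0.0510). Of the family relatives Spry3 and Spred3, neither was called in tumours (log2 fold change 0.08 and 0.25, adjusted p = 0.792 and 0.252).

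Of the 7 other MAP kinase phosphatases, 1 rose and 1 fell in tumours, beside 15.2% of all genes called, and 4 of the 7 estimates lay below 0. Dusp16, which acts mainly on JNK and p38, read 862, 926 and 809 in wild type lung and 1172, 1166 and 1048 in tumours. All tumour arrays were higher (log2 fold change 0.38 ± 0.09, adjusted p = 0.0423). Dusp7, a close relative of Dusp6, read 373, 410.4 and 416 in wild type lung and 303, 274 and 204 in tumours (-0.60 ± 0.15, adjusted p = 0.0449). Both calls sat at the threshold and were lost without any single array of the 6.

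Among 14 cascade components, 2 were called in tumours, against 15.2% of all genes: the scaffolds Ksr1 and Cnksr1, both higher. The other 12 estimates lay below 0, as did 8874 of 18193 over all genes. For 7 of them the tumour arrays were wholly below wild type, as for 3093 of all 18193 genes. None of the 12 was called. Ksr1, which assembles RAF, MEK and ERK, read 227, 265 and 266 in wild type lung and 498, 457 and 479 in tumours, a separation many times the spread within groups (log2 fold change 0.88 ± 0.09, adjusted p = 0.00595). At 7 months it read 244, 256 and 253 in wild type and 330, 347 and 375 in mutant lung (0.45 ± 0.07, adjusted p = 0.00374). These values rest on 1 of 3 Ksr1 probe sets: a dimmer one was lower in tumours (log2 fold change -0.42, adjusted p = 0.0304), and the mean of all 3 gave 0.12 in tumours and 0.16 at 7 months, neither called (adjusted p = 0.327 and 0.240). That dimmer probe set read at most 3.73 on the 7-month arrays described, near the floor, which limits the mean at that age. Cnksr1, a scaffold of RAF, read 135, 159 and 125 in wild type lung and 231, 229 and 223 in tumours (0.65 ± 0.10, adjusted p = 0.0129), and was not called without wild type array 1 (adjusted p = 0.0526) or against wild type array 2 alone (0.0525), where the spread was taken from all other arrays. Nf1, the partner of the SPRED proteins, fell at 7 months from 457, 532 and 458 to 378, 390.3 and 353 (-0.35 ± 0.08, adjusted p = 0.0330), but that call was lost without 8 of the 9 single arrays and with the mean of its 3 probe sets.

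Of 11 FGF ligands and receptors 0 rose and 2 fell in tumours, against 15.2% of all genes called in either direction. Fgfr4, an FGF receptor, read 240, 251 and 227 in wild type lung and 60.4, 111 and 53.0 in tumours (log2 fold change -1.54 ± 0.23, 2.91-fold lower, adjusted p = 0.0120). Of its 4 other probe sets, all of them dim, 1 was also lower (-0.91, adjusted p = 0.00662) and 3 were not called. At 7 months Fgfr4 read 360, 300.2 and 276 in wild type and 214, 255 and 164 in mutant lung, with no overlap (-0.54 ± 0.15, adjusted p = 0.0691). Fgf7, a growth factor made by mesenchymal cells, read 729, 735 and 659 in wild type lung and 358, 472 and 419 in tumours (-0.75 ± 0.12, adjusted p = 0.0136), a call that was lost without wild type array 1 or 2 (0.0537 and 0.0511). Of 7 fibroblast and smooth muscle markers, the mesenchymal genes Tcf21 and Pdgfra fell in the same tumours (log2 fold change -1.32 and -0.68, adjusted p = 0.0180 and 0.0202). The other 5, Col1a1, Col1a2, Acta2, Myh11 and Des, had estimates of 0.28 to 1.41 and were not called, and the summed signal of all 7 was 18538 to 24574 in tumours against 18984 to 22426 in wild type lung. The part of these and of the endothelial and epithelial markers was not tested.

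**Figure D4:**
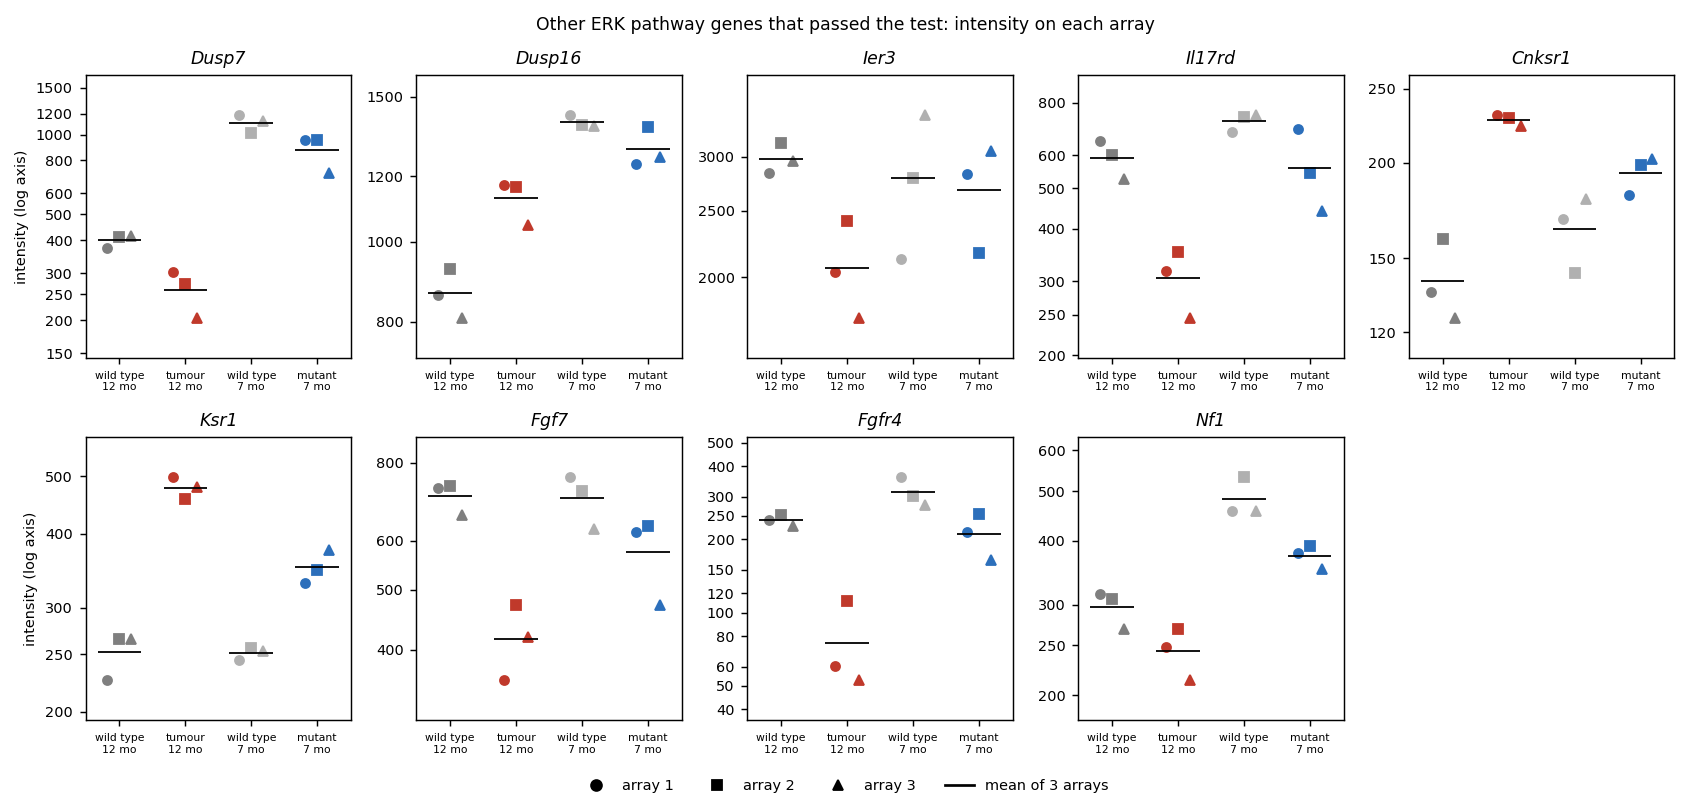
Probe set intensity (log axis) on each of the 12 arrays for the 9 other ERK pathway genes that passed the test at 12 or at 7 months; shapes give the array number and bars the mean of 3 arrays. Ksr1 is higher in tumours and in mutant lung than in every wild type array of that age, and Fgfr4 is lower.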

How the data were processed

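Values of 45101 probe sets on 15 arrays were used as deposited: linear intensity values at a common level, from 0.48 to 17030, whose summarization and scaling are not given in the sources used here. Per the labels' protocols, total RNA was labelled by the Affymetrix 3' IVT Express method. Of these probe sets, 34945 name 1 gene in the platform annotation. Values were taken as log2(intensity + 16), which understates changes of dim genes, since 17.1% to 21.1% of values on an array lay below 16. limma 3.58.1 in R 4.3.3 (lmFit, eBayes, two-sided) was fitted over 18193 genes, with Benjamini-Hochberg adjustment over all of them and a threshold of 0.05. The 12-month fit held 6 arrays, the 7-month fit 9 and the test between ages 15. A further 7-month group of 3 arrays entered the estimates of spread and the choice of probe sets, and neither it nor a further deletion in the mutant genotype is reported here. Adjusted p-values of single probe sets come from fits over all probe sets with 1 gene. The text names all 10 members, the pathway genes that were called (up to 4 a list, by adjusted p), the family relatives and the nearest genes of Etv5; the rule gave nearest genes to called members, of which there were none. Members and lists were chosen with earlier results of these data known. The procedure was tested on simulated data, but its power to find changes of the size seen here is not reported. A gene that was not called may therefore still differ. Alternatives were array scaling, the added constant, the probe set, a filter on dim genes, variance and weight options, the arrays in the fit, the replicate block and each array left out. The number of arrays limits the precision.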

Additional observations from a re-analysis of the deposited data

Results flagged for a closer look

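The effects of 2 pathway genes outside the 10 feedback genes differed between tumours at 12 months and mutant lungs at 7 months by limma's test of that difference. For Dusp16 the difference was 0.49 on the log2 scale (0.38 in tumours and -0.11 at 7 months; adjusted p = 0.0250), with all 3 tumour arrays above and all 3 mutant arrays below wild type of that age. The nearest arrays at 7 months were close, at 1378 in mutant and 1381 in wild type lung. The call for Dusp16 was lost when any of 6 of the 15 arrays was left out. Its other, dimmer probe set gave 0.37 (adjusted p = 0.291 in a fit over all probe sets), with overlapping groups at 7 months. For Ksr1 the difference was 0.43 (0.88 in tumours and 0.45 at 7 months; adjusted p = 0.0486), with all 3 arrays above wild type at both ages, and the call was lost when any of 13 of the 15 arrays was left out. The mean of its 3 probe sets turned the direction (-0.035, adjusted p = 0.895). In a fit over all probe sets the dimmest of them gave -0.50 (adjusted p = 0.0532) and the third -0.028 (adjusted p = 0.967). At 7 months the dimmest read 1 on all wild type arrays and at most 3.73 in mutant lung. So near the floor it says little of an effect at that age, which also limits the mean. The Ksr1 difference of 0.43 was seen in 1 probe set alone.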

How the results depend on the processing

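Of 665 values of the 30 member fold changes under alternatives, 606 kept direction and side of the threshold, 11 gained a call and 48, none called, changed sign. The number of feedback genes called in tumours was 2 with all 15 arrays in 1 fit and 0 to 2 with an array left out; at 7 months it was 1 with median centring, 64 added, dimmer genes left out, or trend and robust fitting, and 0 to 1 with an array left out; between ages it was 1 with array weights and 0 to 1 with an array left out. Over all genes, calls in tumours went from 2774 to 4926 with all 15 arrays and ran from 842 to 3326 with an array left out; at 7 months they went from 1421 to 767 with only the 2 groups compared and from 942 to 1217; between ages from 576 to 382 with 1 added, and from 270 to 1830. The test has fewer samples when an array is left out; otherwise the cause was not tested.

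Sign changes in tumours, as log2 fold changes, were -0.039 (median centring), -0.020 (mean of probe sets), -0.080 (array weights), -0.023 (without the wild type arrays high for Xist) and -0.10 (its other probe set) for Spry2. Spred1 gave -0.061, -0.057 and -0.038 under median centring, array weights and the omission of those wild type arrays, and -0.047, -0.15, -0.021 and -0.052 in 4 other probe sets. Spred2 gave 0.025 with the mean of its probe sets and 0.034, 0.10 and 0.32 in 3 of them, Spry4 gave 0.13 in a dim probe set and Etv4 -0.040 in its other one. At 7 months single probe sets gave 0.36 for Spry4, 0.048 for Spred1 and 0.10 for Spred2. Between ages Spry4 gave 0.30, Spred1 -0.065, -0.070 and -0.019, and Spred2 -0.067 and -0.043 in single probe sets, Spred1 gave -0.0056 with array weights, and Ksr1 -0.035 with the mean of its probe sets. With an array left out, values in tumours ran from -0.27 to 0.24 for Spry2, -0.22 to 0.17 for Spred1 and -0.11 to 0.042 for Spred2; at 7 months from -0.21 to 0.013 for Dusp6, -0.21 to 0.013 for Spry2 and -0.12 to 0.011 for Spred1; between ages from -0.20 to 0.060 for Dusp6, -0.32 to 0.11 for Spry1, -0.18 to 0.33 for Spry2 and -0.16 to 0.22 for Spred1.

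With the replicate block at 7 months, 0 members and 1149 of all genes were called. Same-numbered arrays did not deviate together (r = -0.13, 0.02 and -0.08), and 2 of 6 arrays correlated best with their own number. No block was possible at 12 months, whose labels carry no replicate number. Etv4 and the dim probe sets lie near the added constant, which limits their folds.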
